A study of Mus musculus with 12 samples.

Results

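The SWI/SNF (BAF and PBAF) chromatin-remodelling subunits were followed in mouse yolk sac, in mutants of the subunit Arid1a and in wild type. The list held 30 genes, and its members were the array probes for transcripts whose gene name, in its current or an older form, was one of the 30. Of these genes 28 had at least 1 probe, with 52 probes in all, and 26 were measured above background, among 13890 genes measured in the series. Bicra and Bicral had no probe matched and were not analysed here. Actl6b and Bcl11b, subunits of neural and of lymphoid or skin forms of the complex, had probes whose yolk sac signal was well above background on at most 2 of 12 arrays, and they were left out of the tests.

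SWI/SNF complexes use an ATPase, Smarca4 (BRG1) or Smarca2 (BRM), to slide or eject nucleosomes and so to open DNA to transcription factors. The ATPase sits with a shared core of scaffold subunits and with subunits that define the form of the complex: Arid1a or Arid1b in BAF complexes, Arid2, Pbrm1, Brd7 and Phf10 in PBAF complexes, and Brd9 in the non-canonical form. Arid1a and Arid1b exclude each other from a complex, and loss of the one can leave cells dependent on the other. In the yolk sac, the extraembryonic membrane where the first blood cells and vessels form, remodelling by the BRG1 ATPase is needed for primitive red cells and for vessel growth.

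The groups were homozygous mutants, Arid1a V1068G/V1068G, at embryonic day 9.5 (E9.5) and day 8.5 (E8.5), and wild type of both ages, each with 3 biological replicates on an array of their own. All yolk sacs had a CD1 background, and single or pooled yolk sacs are not told apart in the labels, so p-values measure the spread between these samples. The mutation is a missense change in the domain through which the Arid1a protein contacts DNA; the transcript is still made, so its level is no check of the genotype. Each array set yolk sac RNA in Cy5 against a common Cy3 reference, RNA of whole wild-type newborn mice of mixed 129Sv and C57BL/6 background, and every value below is a log2 ratio of the yolk sac over that reference or a difference of such ratios. Dyes were not swapped, so a ratio against the reference is open to dye bias, while a difference between groups carries the same dye on both sides. Whole yolk sac was used, so fewer cells of a type and less RNA per cell cannot be told apart.

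Over the series, between 47.4% and 50.7% of the spots of an array were well above background in Cy5, and the correlation of replicates over all genes lay between 0.985 and 0.994. Of 14 visceral endoderm markers 13 and of 9 primitive erythroid markers all 9 were above background on all 12 arrays, and their mean log2 ratios lay at 1.59 to 2.28 and 1.94 to 2.43, well over the reference. Several arrays stood apart. The trophoblast hormone gene Prl4a1 was at 3.74 in mutant E9.5 replicate 3, 5.70 in mutant E8.5 replicate 3 and 4.31 in wild-type E9.5 replicate 3, and at most 1.53 on the other 9. Wild-type E8.5 replicate 2 had the highest Myl7, a heart myosin gene (0.01, and at most -1.47 elsewhere), and Hes5, a gene of neural progenitors (0.06, and at most -1.41 elsewhere). It was also the highest of the 12 arrays for 9 of the 26 subunits, whose mean deviation there was 0.13. Xist was low in mutant E8.5 replicates 2 and 3 and in wild-type E9.5 replicate 2. The mesenchyme and mesothelium markers also moved with the groups: at E9.5 none of 10 differed between genotypes by the limma test, while at E8.5 4 were higher in mutant, and between the stages 6 rose and 1 fell in mutant and 6 rose in wild type. Of 13 measured visceral endoderm markers 6 rose between the stages in mutant and 7 in wild type. Of 10 measured heart and muscle markers 0 passed between the stages in mutant, and 4 fell in wild type, Myl7 among them (-1.73 on the log2 scale). Of 9 primitive erythroid markers 2 fell in mutant, and 2 fell and 2 rose in wild type. Of 5 measured decidua and maternal leukocyte markers 3 rose in mutant, and 2 rose and 1 fell in wild type. The part of these differences in the subunit results was not tested beyond the values given with them. There were 3 slides, with all 4 groups on each and a group always at the same place on its slide, so that place and group cannot be told apart.

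Of the 26 subunits 11 (42.3%) lay above the reference on all 12 arrays and 11 (42.3%) below it on all 12, against 41.7% and 37.9% of all genes measured. Those above on every array were the ATPase Smarca4, the core subunits Smarcb1, Smarcd1 and Smarcd2, the actin and actin-related subunits Actb and Actl6a, and Bcl7b, Bcl7c, Brd9, Dpf3 and Pbrm1. Below on every array were the other ATPase, Smarca2, the ARID subunits Arid1b and Arid2, and Smarcc2, Smarcd3, Smarce1, Bcl7a, Brd7, Dpf1, Phf10 and Ss18l1. Arid1a, Smarcc1, Dpf2 and Ss18 had values on both sides of 0. These counts and lists rest on the brightest probe of each gene, and other kept probes differed. A second probe of Ss18l1 (0.42 to 0.81) and of Brd7 (0.27 to 0.55) lay above the reference on all 12 arrays. A dimmer Pbrm1 probe (-0.45 to -0.11) lay below it on all 12. Arid1b, Bcl7c, Pbrm1 and Smarce1 each had another probe with values on both sides of 0. The reference signal of Smarcd1 was well above background on 1 of 12 arrays only, so its ratio has a weak denominator. Each probe has its own response, and ratios of different genes are not set against each other.

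**Figure D1:**
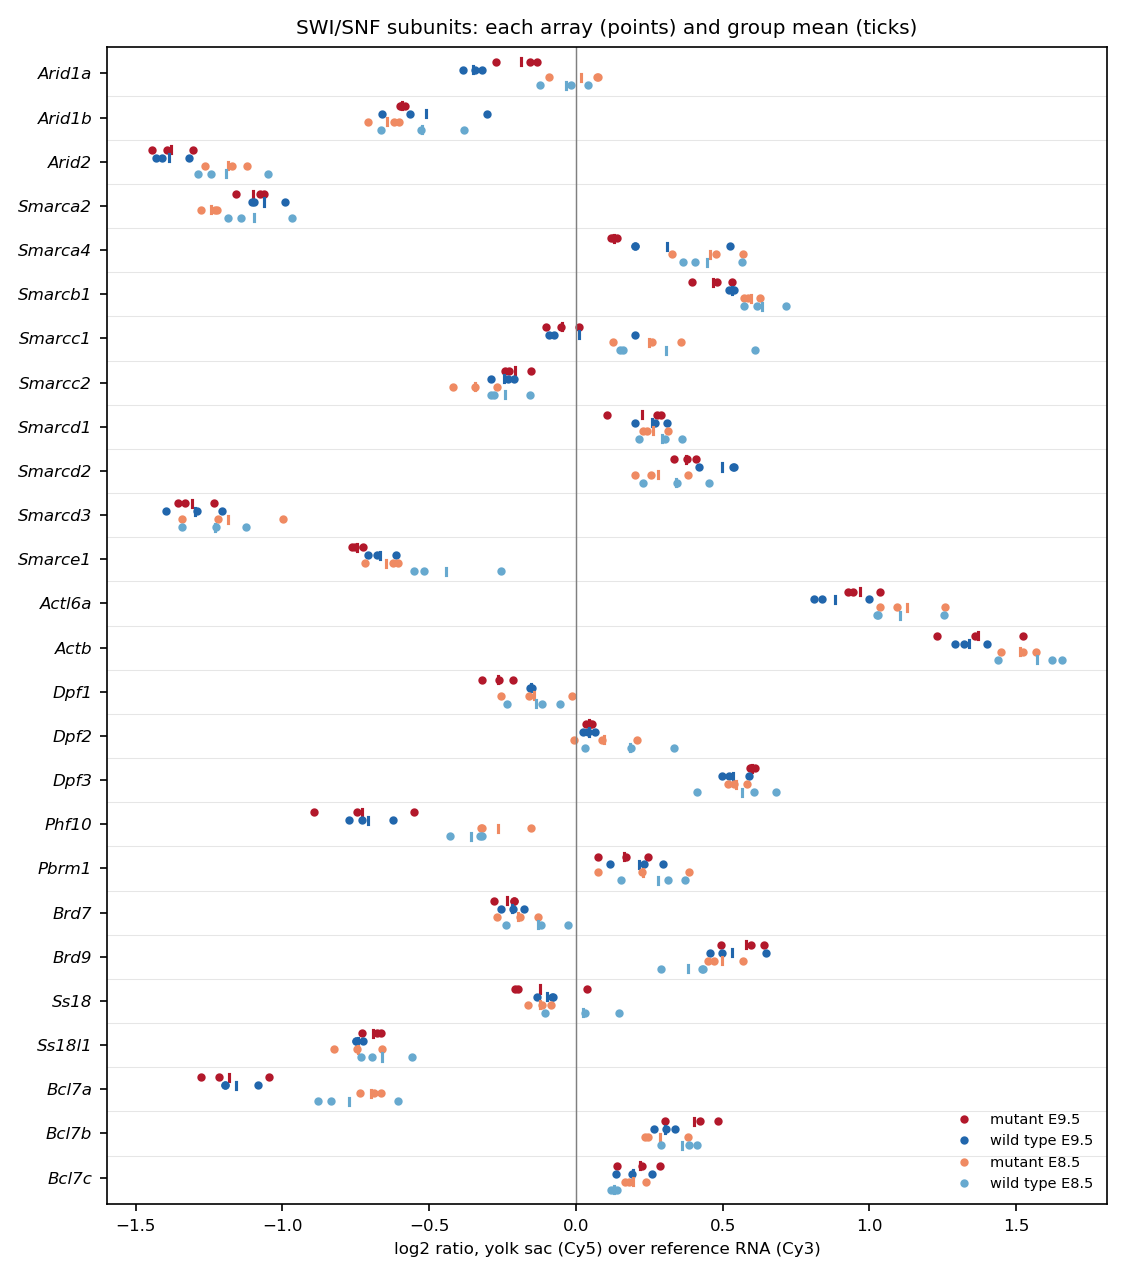
Log2 ratio of yolk sac RNA over the reference RNA (horizontal axis) for each of the 26 measured subunits (rows). Points are arrays and ticks are group means, with mutant E9.5 uppermost, then wild type E9.5, mutant E8.5 and wild type E8.5. The E9.5 points of Bcl7a and Phf10 lie left of their E8.5 points in both genotypes, while points of the 2 genotypes at 1 stage mix in most rows.

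Promoters are shown for Arid1a and Phf10, 2 of the 3 subunits whose transcripts fell between the stages in both genotypes. The sequences are those of RefSeq (build GRCm38.p6), 300 bases long, from 250 bases before to 50 after an annotated start, written 5′ to 3′ on the minus strand. Capitals mark every GGGCGG and its other strand CCGCCC, the GC box read by Sp and Klf factors. The remaining one, Bcl7a, had no entry in the sequence table, nor had Smarce1, Actb and Arid2. Subunit promoters on 1 chromosome were left out, and whether Ss18 had an entry was not checked. The Arid1a starts are at chr4:133753936-133754235 (start 1) and chr4:133756720-133757019 (start 2), and Phf10 is at chr17:14961211-14961510.
Arid1a start 1: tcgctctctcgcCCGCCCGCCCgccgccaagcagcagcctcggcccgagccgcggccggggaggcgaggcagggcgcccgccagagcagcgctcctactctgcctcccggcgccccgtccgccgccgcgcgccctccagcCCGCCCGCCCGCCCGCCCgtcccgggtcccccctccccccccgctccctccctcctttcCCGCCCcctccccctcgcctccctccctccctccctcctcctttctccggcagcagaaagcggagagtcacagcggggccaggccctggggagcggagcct
Arid1a start 2: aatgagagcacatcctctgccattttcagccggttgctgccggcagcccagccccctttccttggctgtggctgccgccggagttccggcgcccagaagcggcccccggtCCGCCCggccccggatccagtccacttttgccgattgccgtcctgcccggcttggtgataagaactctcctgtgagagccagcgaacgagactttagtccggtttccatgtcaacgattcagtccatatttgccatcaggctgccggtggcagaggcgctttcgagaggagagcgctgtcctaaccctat
Phf10: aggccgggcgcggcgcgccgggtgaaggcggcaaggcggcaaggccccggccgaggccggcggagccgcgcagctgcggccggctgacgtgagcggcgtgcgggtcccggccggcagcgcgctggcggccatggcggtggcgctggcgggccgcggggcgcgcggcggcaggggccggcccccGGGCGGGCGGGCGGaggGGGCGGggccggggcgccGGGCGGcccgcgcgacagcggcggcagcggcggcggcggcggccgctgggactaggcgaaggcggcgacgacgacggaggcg

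The GC box, counted on both strands with overlapping matches, occurred 7 times and 1 time at the Arid1a starts and 5 times at Phf10. Among the 25 promoters listed for 23 subunits, 23 (92.0%) held it, against 35.7% of the 32851 promoters of that length in the table. The 25 leave out 1 chromosome, which was not left out of the 32851. Subunit promoters were rich in G and C, with a median of 69.7% (43.0% to 87.0%) against 52.7% over the table, and whether the share with a GC box follows this composition was not tested. CCAAT or its other strand ATTGG was found in 4 subunit promoters (16%, against 37.4%), and TATAAA or TTTATA in 2 (8%, against 13.6%). The ETS motif CCGGAAGT (ACTTCCGG) and the NRF1 palindrome were in none of the 25, against 3.89% and 0.971% of the table. None of the 3 sequences printed held any motif searched other than the GC box. These matches describe the letters of the windows only.

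The first comparison asks whether the mutation changed the transcript of Arid1a itself. At E9.5, Arid1a had log2 ratios of -0.27, -0.13 and -0.16 in mutant yolk sacs, against -0.34, -0.32 and -0.38 in wild type. All 3 mutant values were above all 3 wild-type values. The difference was 0.16 ± 0.06 (SE, n = 3 each; limma adjusted p = 0.30) with a 95% interval of 0.02 to 0.30, and it did not pass the test. On the 3 slides the mutant was higher by 0.07, 0.19 and 0.23. At E8.5 the ratios were -0.09, 0.07 and 0.07 in mutant and -0.12, 0.04 and -0.02 in wild type, and the groups overlapped. The difference there was 0.05 ± 0.06 (limma adjusted p = 0.823), above 0 on each of the 3 slides. Its sign was turned by median centring (-0.08) and by a covariate for Xist (-0.003). With median centring the median of all genes was at -0.09, and relative to that median the Arid1a difference was 0.01. Averaged over both stages, the Arid1a difference in the main fit was 0.11 ± 0.05 (adjusted p = 0.241 in limma). Arid1a was read by 1 probe, 60 bases long, which the array files place on chromosome 4 at 132951453 to 132951512 in a mouse build that they do not name.

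Whether Arid1b or another subunit was raised in the mutant was the next question. Arid1b, the paralogue that can take the place of Arid1a in BAF complexes, was at -0.58, -0.60 and -0.60 in mutant E9.5 yolk sacs, against -0.56, -0.30 and -0.66 in wild type. At E8.5 it was at -0.71, -0.60 and -0.62 in mutant and at -0.66, -0.38 and -0.53 in wild type. On the brightest probe, which gave these values, the groups overlapped at both stages, and the second wild-type array was the highest each time. The differences were -0.08 ± 0.09 at E9.5 (limma adjusted p = 0.799) and -0.12 ± 0.09 at E8.5 (limma adjusted p = 0.641), or 0.02 and -0.05 without the second wild-type array of the stage. The 95% intervals ran from -0.27 to 0.10 at E9.5 and from -0.30 to 0.06 at E8.5, and from -0.23 to 0.03 for the average over both stages. A second, slightly dimmer Arid1b probe gave -0.25 ± 0.09 at E9.5 and -0.10 ± 0.09 at E8.5, with limma adjusted p = 0.293 and 0.775 over all probes. On that probe the E9.5 mutant values (0.02, -0.007 and 0.17) were all below the wild-type values (0.18, 0.53 and 0.20), and the E8.5 groups overlapped. No probe of Arid1b was higher in mutant beyond its spread.

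Arid2, the ARID subunit of PBAF, lay at -1.39, -1.30 and -1.44 in mutant E9.5 yolk sacs and at -1.41, -1.32 and -1.43 in wild type. At E8.5 it was at -1.26, -1.17 and -1.12 in mutant and at -1.29, -1.05 and -1.24 in wild type. The genotypes overlapped at both stages, with a difference of 0.01 ± 0.07 at each (limma adjusted p = 0.989 at E9.5 and 0.983 at E8.5) and 95% intervals of -0.14 to 0.15 and -0.14 to 0.16. Arrays left out aside, its sign turned under 4 of 14 other settings at each stage.

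Of the ATPases, Smarca4 was at 0.14, 0.13 and 0.12 in mutant E9.5 yolk sacs, against 0.20, 0.53 and 0.20 in wild type. All mutant values were below all wild-type values, and 1 wild-type array, replicate 2, stood far above the other 2. The difference of -0.18 ± 0.09 (limma adjusted p = 0.449) became -0.07 without that array. At E8.5 the ratios were 0.33, 0.57 and 0.48 in mutant, against 0.36, 0.57 and 0.41 in wild type, with full overlap and a difference of 0.01 ± 0.09. A second bright Smarca4 probe gave -0.14 at E9.5 and -0.003 at E8.5. At E9.5 its arrays did not overlap, at 0.81, 0.79 and 0.81 in mutant against 0.87, 1.04 and 0.91 in wild type. The dimmest Smarca4 probe gave -0.03 at E9.5 and 0.06 at E8.5, but its reference signal was well above background on 0 of 12 arrays. None of these differences passed the test.

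Smarca2, the alternative ATPase, was at -1.06, -1.16 and -1.08 in mutant E9.5 yolk sacs and at -1.10, -0.99 and -1.10 in wild type, a difference of -0.04 ± 0.06. At E8.5 it was at -1.22, -1.23 and -1.28 in mutant, against -1.14, -0.97 and -1.18 in wild type. There every mutant array was below every wild-type array. The difference was -0.14 ± 0.06 (limma adjusted p = 0.353), and -0.08 without wild-type E8.5 replicate 2. A second, dimmer probe gave 0.05 ± 0.06 at E8.5 and -0.16 ± 0.06 at E9.5, so the probes did not give 1 direction at E8.5.

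Smarce1 (BAF57), a core subunit that binds DNA through an HMG domain, was the one subunit whose arrays did not overlap in the same direction at both stages. At E9.5 it was at -0.76, -0.72 and -0.75 in mutant, against -0.68, -0.61 and -0.71 in wild type. At E8.5 it was at -0.72, -0.62 and -0.61 in mutant, against -0.55, -0.25 and -0.52 in wild type. The mutant was lower on all 3 slides at both stages, but the tests were not passed: -0.08 ± 0.07 at E9.5 (limma adjusted p = 0.759), -0.21 ± 0.07 at E8.5 (limma adjusted p = 0.206) and -0.14 ± 0.05 over both (limma adjusted p = 0.139). Without wild-type E8.5 replicate 2, the array high in heart and neural transcripts, the E8.5 difference was -0.11 (adjusted p = 0.501 in limma). Its other measured probe gave -0.005 at E9.5 and -0.08 at E8.5. A pattern of this kind held in 1 of 26 subunits (3.85%) and in 4.69% of all genes.

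Taking the 26 subunits as a group, 0 passed the limma test between the genotypes at E9.5 or at E8.5, against 1.99% and 1.46% of all genes. For the average over both stages the count was again 0 of 26, where 4.69% of all genes passed. At an unadjusted p under 0.05, the subunits were 1 at E9.5 (Arid1a), 2 at E8.5 (Smarce1 and Smarca2) and 2 on average (Arid1a and Smarce1). That is 3.85%, 7.69% and 7.69% of the list, where 12% of all genes at E9.5, 12.4% at E8.5 and 17% on average did so. The median difference of the subunits was -0.02 at E9.5 and -0.05 at E8.5, against 0.0002 and 0.002 for all genes, with 15 and 17 of 26 below 0. With median centring in place of loess, 21 at E9.5 and 25 at E8.5 were below 0, where the median of all genes moved to -0.06 and -0.09. With Xist as a covariate, 12 at E9.5 and 21 at E8.5 were below 0. Their median size without sign was 0.05 and 0.06, against 0.06 and 0.06. Arrays did not overlap in 6 subunits at E9.5 (23.1%, against 17.2% of all genes) and in 4 at E8.5 (15.4%, against 17.9%).

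The remaining subunits filled the range between. At E9.5 the differences of all 26 lay between -0.18 and 0.16, and at E8.5 between -0.21 and 0.11. The scaffold subunits Smarcc1 and Smarcc2 differed by -0.06 ± 0.11 and 0.04 ± 0.06 at E9.5 and by -0.06 ± 0.11 and -0.10 ± 0.06 at E8.5. Smarcb1 (SNF5), the core subunit lost in rhabdoid tumours, differed by -0.06 ± 0.06 and -0.04 ± 0.06 at the same stages. Actl6a differed by 0.09 ± 0.08 at E9.5 and 0.03 ± 0.08 at E8.5, and Actb by 0.03 ± 0.08 and -0.06 ± 0.08. Smarcd2, 1 of 3 alternative BAF60 subunits, had no overlap at E9.5, at 0.38, 0.34 and 0.41 in mutant against 0.53, 0.54 and 0.42 in wild type, with a difference of -0.12 ± 0.07 (limma adjusted p = 0.516). Pbrm1, the polybromo subunit of PBAF and a tumour suppressor of the kidney, differed by -0.05 ± 0.08 at both stages. Other Pbrm1 probes gave -0.11, 0.11 and 0.004 at E9.5, with no single direction, and -0.11, -0.02 and -0.07 at E8.5. Brd7, the bromodomain partner of Pbrm1, differed by -0.02 ± 0.06 at E9.5 and -0.07 ± 0.06 at E8.5. Brd9, of the non-canonical complex, had no overlap at E8.5, where it differed by 0.11 ± 0.07 (limma adjusted p = 0.541), and differed by 0.04 ± 0.07 at E9.5. Ss18, the subunit fused in synovial sarcoma, differed by -0.02 ± 0.07 at E9.5 and -0.15 ± 0.07 at E8.5, and its relative Ss18l1 by 0.05 ± 0.06 and -0.08 ± 0.06. Bcl7b differed by 0.10 ± 0.06 at E9.5 and -0.07 ± 0.06 at E8.5, and Bcl7a by -0.02 ± 0.08 and 0.08 ± 0.08. Bcl7c had no overlap at E8.5, where it differed by 0.07 ± 0.05, and differed by 0.02 ± 0.05 at E9.5. Its other probes gave -0.07, -0.08 and 0.03 at E8.5. The other BAF60 subunits, Smarcd1 and Smarcd3, differed by -0.04 ± 0.06 and -0.009 ± 0.08 at E9.5 and by -0.03 ± 0.06 and 0.04 ± 0.08 at E8.5. Dpf1 (-0.11 ± 0.07) and Dpf3 (0.06 ± 0.06) had no overlap at E9.5, and differed by -0.008 ± 0.07 and -0.02 ± 0.06 at E8.5. Dpf2 differed by 0.002 ± 0.07 at E9.5 and -0.09 ± 0.07 at E8.5, and Phf10 by -0.02 ± 0.08 and 0.09 ± 0.08. In the main fit the 95% intervals of the 26 reached at most 0.37 from 0 at E9.5, 0.36 at E8.5 and 0.25 on average. The smallest differences that passed the test over all genes were 0.22, 0.22 and 0.13. These sizes depend on the processing. Under the 14 other settings that left out no single array, Smarca2 ran from -0.38 to -0.02 at E9.5 and from -0.34 to -0.05 at E8.5.

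**Figure D2:**
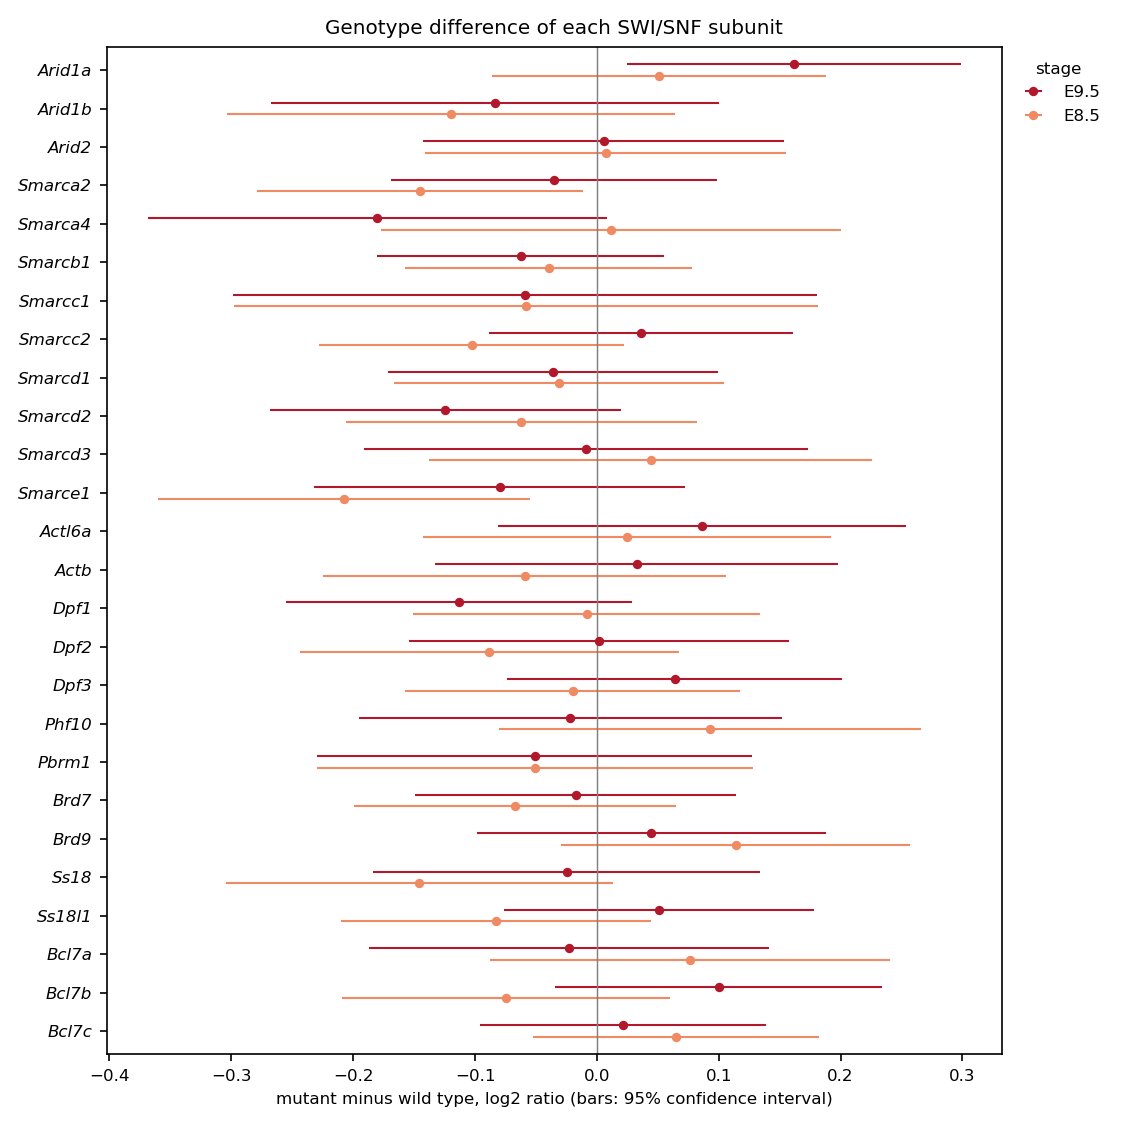
Difference of the log2 ratio between mutant and wild type (horizontal axis) for each of the 26 subunits (rows), at E9.5 (upper point of a row) and E8.5 (lower point), with 95% confidence intervals from the limma fit. Arid1a at E9.5 is the highest point, at 0.16, and Smarce1 at E8.5 the lowest, at -0.21.

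The genotype difference was also compared between the stages. Of the 26 subunits 0 passed the interaction test, as did 0% of all genes (0 of 13890, with 795 genes, 5.72%, and 0 subunits at an unadjusted p under 0.05 in limma). The interaction, the genotype difference at E9.5 minus that at E8.5, ran from -0.19 for Smarca4 to 0.17 for Bcl7b, a subunit of the BCL7 family. It was 0.11 ± 0.09 for Arid1a and 0.04 ± 0.12 for Arid1b.

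Between the stages some subunits passed the adjusted test, a smaller share than of all genes in either genotype. With loess and the brightest probe of each gene those that passed all fell. This did not hold with median centring or in the fit by probe. In mutant yolk sacs 4 of 26 (15.4%) were lower at E9.5 than at E8.5 and 0 were higher, against 10.6% of all genes lower and 11% higher (21.6% in all). In wild type 5 of 26 (19.2%) were lower and 0 higher, against 11% and 12.8% of all genes (23.8% in all). At an unadjusted p under 0.05 there were 9 subunits in mutant (34.6%, against 33.3% of all genes) and 10 in wild type (38.5%, against 35.7%). Bcl7a, Phf10 and Arid1a passed the adjusted test in both genotypes. Smarca4 passed in mutant only and Smarce1 and Actb in wild type only, but no interaction passed the test, so the stage change is not shown to differ between the genotypes. The mutant and wild-type arrays are separate, and their stage changes share no sample. They do share the 3 slides, the reference RNA and the fitted estimate of the spread. On every slide the E8.5 arrays were at places 1 and 2 and the E9.5 arrays at places 3 and 4, so place and stage cannot be told apart in either genotype.

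Bcl7a, a small subunit whose gene was first found at a translocation in B-cell lymphoma, fell most. In mutant yolk sacs it was at -1.28, -1.05 and -1.22 at E9.5, against -0.74, -0.67 and -0.69 at E8.5. In wild type it was at -1.20, -1.08 and -1.19 at E9.5, against -0.88, -0.61 and -0.83 at E8.5. In either genotype every E9.5 array was below every E8.5 array. The change was -0.48 ± 0.08 in mutant (limma adjusted p = 0.000512) and -0.38 ± 0.08 in wild type (limma adjusted p = 0.00245). It was lower on all 3 slides in both, and the call held without any 1 array. Its relatives Bcl7b and Bcl7c moved by 0.12 ± 0.06 and 0.02 ± 0.05 in mutant and by -0.06 ± 0.06 and 0.07 ± 0.05 in wild type, and neither passed.

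Phf10 (BAF45A), a PHD-finger subunit of PBAF that is known from neural progenitors and from blood stem cells, was at -0.55, -0.75 and -0.89 in mutant at E9.5, against -0.32, -0.32 and -0.15 at E8.5. In wild type it was at -0.77, -0.73 and -0.62 at E9.5, against -0.43, -0.33 and -0.32 at E8.5. The stages did not overlap in either genotype. It fell by 0.46 ± 0.08 on the log2 scale in mutant (limma adjusted p = 0.00106) and by 0.35 ± 0.08 in wild type (limma adjusted p = 0.00633). Its paralogues Dpf1, Dpf2 and Dpf3, which take that place in BAF complexes, moved by -0.12, -0.05 and 0.05 in mutant and by -0.02, -0.14 and -0.03 in wild type, and none passed.

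Arid1a, with the values given above, fell by 0.21 ± 0.06 on the log2 scale in mutant (limma adjusted p = 0.0333) and by 0.32 ± 0.06 in wild type (limma adjusted p = 0.00271). The stages did not overlap in either. The wild-type call held without any 1 array. Of the mutant arrays, 4 decided the mutant call: it was not passed when E8.5 replicate 2 (-0.18), E8.5 replicate 3 (-0.18), E9.5 replicate 1 (-0.16) or E9.5 replicate 3 (-0.22) was left out. Arid1b moved by 0.05 ± 0.09 and 0.02 ± 0.09, with 95% intervals of -0.13 to 0.24 in mutant and -0.17 to 0.20 in wild type. Arid2 moved by -0.20 ± 0.07 in mutant (limma adjusted p = 0.0585) and by -0.19 ± 0.07 in wild type (limma adjusted p = 0.0564), just outside the threshold, with no overlap of stages in either.

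Smarca4 fell by 0.33 ± 0.09 on the log2 scale in mutant (limma adjusted p = 0.0155), and its 3 E9.5 arrays were all under its 3 E8.5 arrays. In wild type it moved by -0.14 ± 0.09 (limma adjusted p = 0.288), and E9.5 replicate 2 was among the E8.5 values. The mutant call was lost without mutant E8.5 replicate 2 (-0.27) or 3 (-0.32). The second bright probe of Smarca4 (-0.14) and its dimmest probe (-0.08), which had a weak reference signal, moved the same way in mutant but did not pass. The call thus rested on the brightest probe. Smarca2 moved by 0.14 ± 0.06 in mutant (limma adjusted p = 0.121) and 0.03 ± 0.06 in wild type.

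Smarce1 fell by 0.22 ± 0.07 on the log2 scale in wild type (limma adjusted p = 0.0337), and moved by -0.10 ± 0.07 in mutant. A second, dimmer probe of Smarce1 went the other way, rising by 0.21 ± 0.07 in mutant in the fit by probe (limma adjusted p = 0.0482) and moving by 0.13 ± 0.07 in wild type, so the gene has no single direction here. The test in wild type was not passed when its E8.5 replicate 2 (-0.13), its E9.5 replicate 1 (-0.22) or its E9.5 replicate 3 (-0.20) was left out. Actb, the beta-actin that is both a cytoskeletal protein and a subunit of the complex, was at 1.32, 1.40 and 1.29 in wild type at E9.5, against 1.44, 1.62 and 1.65 at E8.5. It fell by 0.23 ± 0.08 on the log2 scale there (limma adjusted p = 0.0411), with a second probe at -0.23 as well. In mutant, where it was at 1.23, 1.36 and 1.52 at E9.5, against 1.57, 1.45 and 1.52 at E8.5, the stages overlapped and it moved by -0.14 ± 0.08. Leaving out any of 6 arrays ended the call: in wild type those were E9.5 replicates 1 (-0.22) and 3 (-0.21) and E8.5 replicates 2 (-0.21) and 3 (-0.19), and in mutant E9.5 replicate 2 and E8.5 replicate 3 (-0.23 for each). Actin genes are related in sequence, and the files place the brighter Actb probe on the X chromosome, so signal from related copies cannot be told apart from that of Actb.

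**Figure D3:**
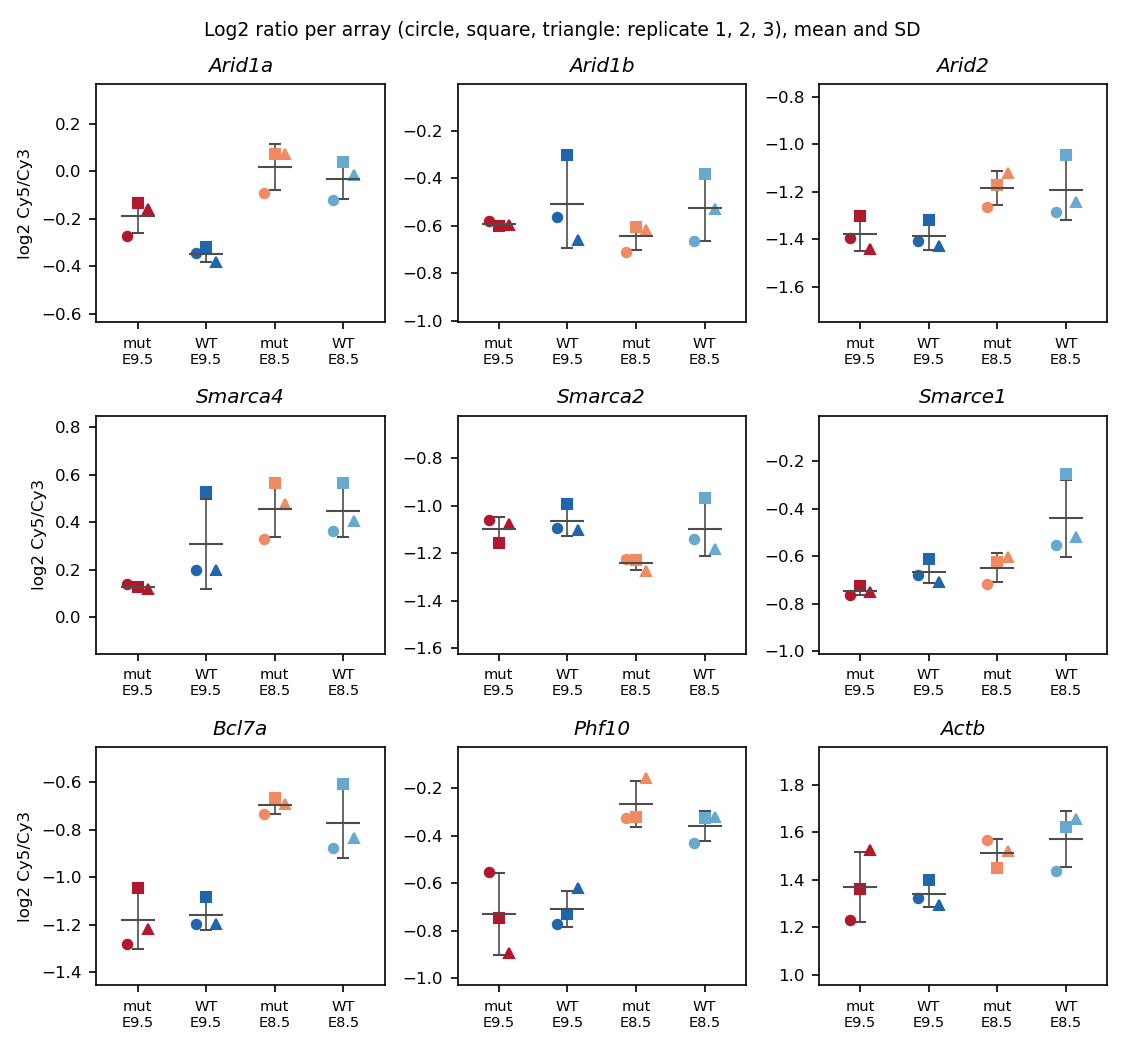
Log2 ratio per array of 9 subunits, with the mean and SD of each group of 3 arrays; every panel spans 1 unit on the vertical axis. From left to right stand mutant E9.5, wild type E9.5, mutant E8.5 and wild type E8.5. Bcl7a and Phf10 are lower at E9.5 in both genotypes, and wild-type replicate 2 (squares) is the highest of its group in several panels.

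Outside the called genes, Smarcc1 (BAF155), the scaffold needed for the complex in early embryos, moved by -0.30 ± 0.11 in both genotypes (limma adjusted p = 0.0756 in mutant and 0.0713 in wild type). In wild type its ratios were -0.08, 0.20 and -0.09 at E9.5, against 0.16, 0.61 and 0.15 at E8.5, with replicate 2 the highest at both stages. Compared within a slide, it was lower by 0.24, 0.41 and 0.24, and with the replicate number, which marks the shared slide, as a block it passed in both genotypes. So did Arid2, while Actl6a (BAF53A), an actin-related subunit of progenitor cells, then passed in wild type. Under that block the subunits that passed were 6 of 26 in mutant and 8 of 26 in wild type, and all of them fell. Of all 13890 genes, 3479 in mutant and 3944 in wild type then passed, and 50.4% and 51.6% of these were higher at E9.5. Smarcc2, the paralogue of Smarcc1, moved by 0.14 ± 0.06 in mutant and -0.003 ± 0.06 in wild type.

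As a group, the 26 subunits had a median stage change of -0.06 in mutant and -0.08 in wild type, with 17 and 21 below 0, against -0.008 and -0.01 over all genes. Their median size without sign was 0.12 and 0.11, against 0.10 and 0.11 for all genes. Arrays of the stages did not overlap in 13 subunits (50%, against 38.4% of all genes) in mutant and in 9 (34.6%, against 37.5%) in wild type. Of 14 other settings that left out no single array, 6 ended the call of Smarca4 in mutant, 8 that of Smarce1 and 7 that of Actb in wild type. Arid1a in mutant lost its call under 4 of them. Bcl7a in mutant kept it under all 14. Phf10 lost its call in mutant with median centring, and in wild type both there and with the scanner software's processed signals, where its change was -0.29 (limma adjusted p = 0.0516). Arid1a and Bcl7a in wild type lost theirs with median centring and under no other of the 14. With Xist as a covariate, or without the 3 arrays high in trophoblast transcripts, 2 subunits (Bcl7a and Phf10) passed in mutant. Over all genes 1395 of 13890 passed there with the covariate, and 1347 of 13889 without those arrays. In wild type, 3 subunits passed without those arrays (Arid1a, Bcl7a and Phf10), and 5 with the Xist covariate, against 2506 and 2277 of all genes. Median centring in place of loess moved the median of all genes up by 0.14 in mutant and 0.11 in wild type, and under it 3 subunits passed in mutant and 0 in wild type, against 1756 and 1458 of all genes. Of the 3, Bcl7a fell, while Smarcc2, a scaffold subunit, was 0.25 higher at E9.5 (limma adjusted p = 0.031) and Smarca2, the alternative ATPase, 0.29 higher (limma adjusted p = 0.0494). In that setting 6 of 26 subunits were below 0 in mutant and 10 in wild type. Relative to that shifted median the changes were -0.46 and -0.37 for Bcl7a, -0.37 and -0.27 for Phf10, and -0.14 and -0.26 for Arid1a, and in mutant 0.11 for Smarcc2 and 0.14 for Smarca2.

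**Figure D4:**
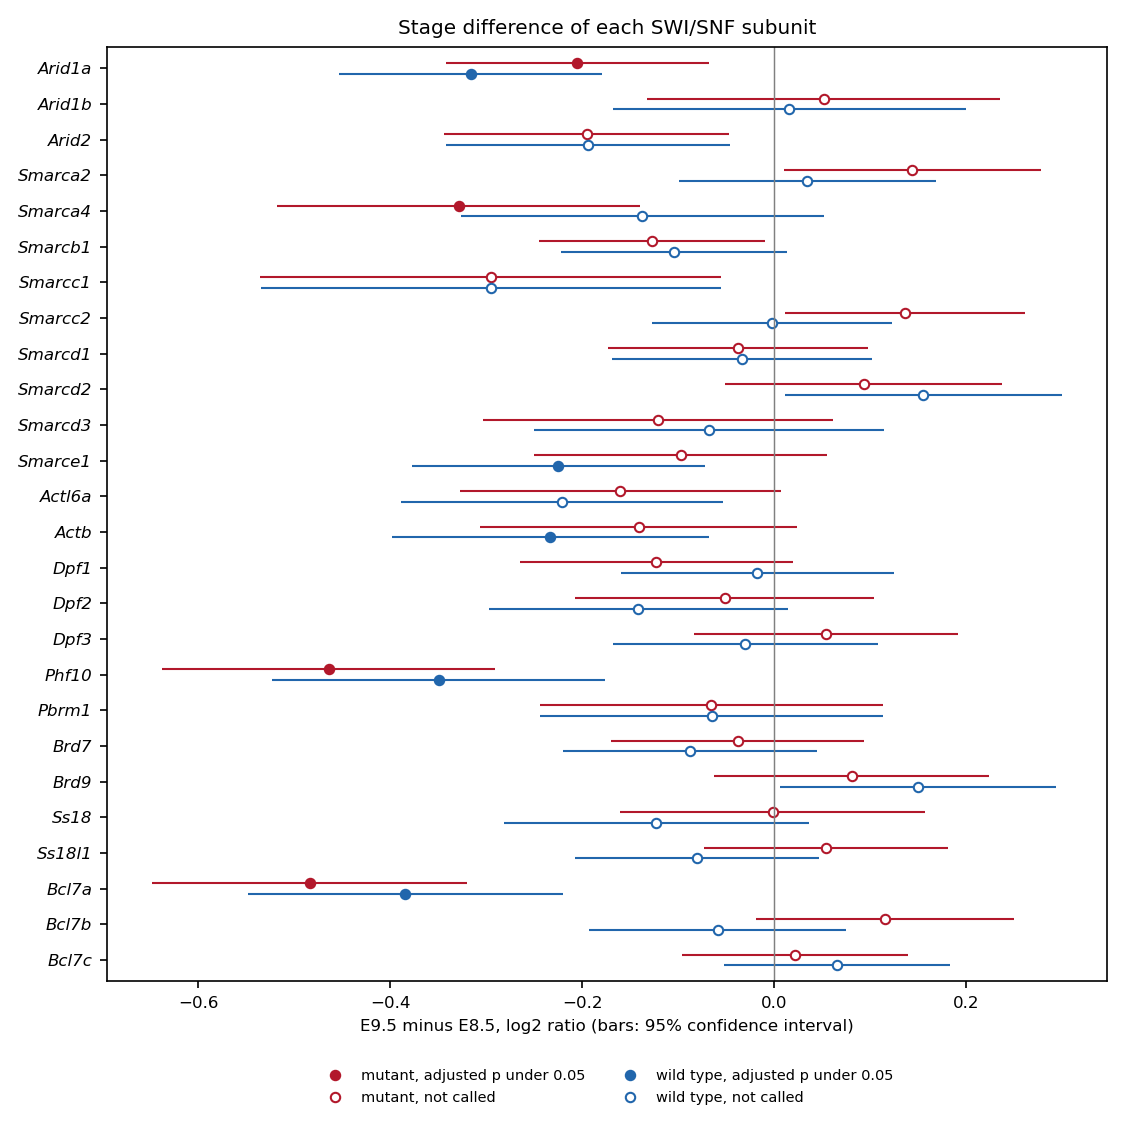
Change of the log2 ratio from E8.5 to E9.5 (E9.5 minus E8.5, horizontal axis) for each of the 26 subunits (rows), in mutant (upper point) and wild type (lower point), with 95% confidence intervals; filled points passed the limma test at an adjusted p under 0.05. All 9 filled points lie left of 0, with Bcl7a and Phf10 furthest left in both genotypes.

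Other chromatin regulators give the setting. Of 42 measured members of the ISWI, CHD and INO80 families of remodellers, 0 passed between genotypes at either stage, and 11 fell and 1 rose between the stages in mutant, with 13 down and 2 up in wild type. Of all genes, 10.6% fell and 11% rose in mutant, and 11% fell and 12.8% rose in wild type. Baz1a (ACF1), the partner of the ISWI ATPase Smarca5, fell by 0.99 ± 0.08 on the log2 scale in mutant and by 0.76 ± 0.08 in wild type. Smarca1, the other ISWI ATPase, rose by 0.58 ± 0.08 in mutant and by 0.67 ± 0.08 in wild type. Ino80e, a subunit of INO80, fell by 0.33 ± 0.05 in mutant and by 0.19 ± 0.05 in wild type. Chd1, a remodeller of transcribed genes, fell by 0.26 ± 0.07 in mutant and by 0.49 ± 0.07 in wild type. Among 26 measured Polycomb group genes, which oppose SWI/SNF in flies and mammals, Kdm2b, which brings a Polycomb complex to CpG islands, was 0.26 ± 0.06 lower in mutant at E9.5 (difference -0.26; limma adjusted p = 0.0303), and 0 passed at E8.5. Averaged over the stages, Kdm2b differed by -0.20 ± 0.04 (limma adjusted p = 0.0103). Between the stages Ezh2, the Polycomb histone methyltransferase, fell by 0.27 ± 0.07 in mutant and by 0.40 ± 0.07 in wild type, its partner Mtf2 by 0.31 ± 0.08 and 0.51 ± 0.08, and Phc1, a polyhomeotic subunit, by 0.38 ± 0.08 and 0.30 ± 0.08. In all, 3 Polycomb genes fell and 1 rose in mutant, and 3 fell and 2 rose in wild type.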

How the data were processed

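Total RNA of 12 yolk sac samples was hybridised on 2-colour Agilent arrays, with the sample in Cy5 and the reference in Cy3 per the labels. Feature Extraction 9.5.1.1, per the file headers, gave the deposited mean and background intensity of each spot in both dyes, its flags, and a log10 ratio made by the authors' scanner software. The deposited value table equals the authors' log2 ratios centred on each probe's median over the arrays. Background was corrected with normexp (offset 50), ratios were normalised by loess within arrays (limma 3.58.1, R 4.3.3, data.table version 1.17.8), and spots flagged as outliers or over 20 units below local background were set to missing. Probes well above background in Cy5 on all 3 arrays of a group were kept, and the brightest probe stood for its gene. Probes were named through accessions and symbols of a RefSeq table (GRCm38.p6).

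One limma model of 4 group means over all 12 arrays (8 residual and 6.23 prior degrees of freedom) gave 6 contrasts, with Benjamini-Hochberg adjustment over 13890 genes and a threshold of 0.05. The steps were tested on simulated data with errors independent between arrays. In the genotype contrast at E8.5, 11.5% of changes of 0.25 on the log2 scale were recovered, and 90% of changes of 0.5. Real differences of the size seen in the subunits would thus mostly be missed. Precision is limited by 3 arrays per group. Every member is accounted for; array values are given for Arid1a, Arid1b, Arid2, Smarca2, Smarca4 and each member past the threshold, and of other chromatin regulators those called in a genotype contrast, or the first 3 by adjusted p in a stage contrast, are named, except for results not reported here. Members shown beyond that rule were chosen after their values were seen. The members and lists were chosen with earlier results of these data known.

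Replicate number and slide coincide per the file headers, so numbers pair the arrays by slide. Same-numbered arrays deviated together, with r of 0.08 to 0.30 between genotypes and 0.17 to 0.38 between stages, all above 0. Alternatives covered background, normalisation, offset, filters, probe choice, the deposited value table, the replicate block, array weights, Xist, the groups fitted, and arrays left out.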

Additional observations from a re-analysis of the deposited data

How the results depend on the processing

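The counts of 0 subunits called between genotypes, and in the interaction, held under every setting run, and the interaction was not run with only the 2 groups compared. Among the settings fitted by gene, other than leaving out 1 array, the lowest adjusted p (limma) over the subunits lay between 0.0701 and 0.715 at E9.5, 0.113 and 0.482 at E8.5, and 0.0646 and 0.284 on average. Between the stages the mutant count of 4 became 2 with an offset of 16, with the Xist covariate and without the 3 arrays high in trophoblast transcripts, and lay between 2 and 6 when 1 array was left out. Over all genes the mutant calls were then 2742, 1395 and 1347, against 2998 in the main fit. With 1 array left out they were 2131 to 3368. The wild-type count of 5 became 2 with the processed signals, 0 with median centring, 3 with an offset of 16, 3 with the deposited value table and 3 without the trophoblast arrays, and lay between 3 and 8 when 1 array was left out. The calls over all genes were 3112, 1458, 3106, 3143 and 2506 in that order, against 3308 in the main fit. With 1 array left out they were 2295 to 3318. With the replicate block, which pairs the arrays of a slide, the wild-type count was 8, and 6 in mutant, against 3944 and 3479 of all genes. Under the remaining settings the mutant count lay between 3 and 6 and the wild-type count between 4 and 6. A slide block would equal it and was not run separately.

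Median centring turned the sign of Arid1a at E8.5 (-0.076) and of its stage change in mutant (0.0039), of Arid2 (-0.086 at E9.5, -0.13 at E8.5) and of Smarca4 at E8.5 (-0.13). It also moved the share of calls that were higher to 95.6% in mutant and 94.7% in wild type between the stages, against 50.8% and 53.9% with loess, and between genotypes to 19.2% at E9.5, 20% at E8.5 and 14.6% on average, against 45.8%, 49.8% and 50.3%. Relative to the median of all genes under median centring, Arid1a was at 0.014 at E8.5 and its mutant stage change at -0.14, signed as in the main fit. In the same terms Arid2 was at -0.029 at E9.5 and -0.041 at E8.5, and Smarca4 at -0.040 at E8.5. The Xist covariate turned Arid1a (-0.0033), Arid2 (-0.049) and Smarca4 (-0.19) at E8.5 and Arid1b at E9.5 (0.0063). Arid2 also turned at E9.5 with the processed signals (-0.010), the deposited table (-0.010) and the mean of probes (-0.0075), and at E8.5 with the mean of probes (-0.0014) and without the trophoblast arrays (-0.025). Leaving out 1 array, values ranged from -0.040 to 0.079 for Arid2 and from -0.044 to 0.076 for Smarca4 at E8.5, and at E9.5 from -0.033 to 0.039 for Arid2, -0.16 to 0.020 for Arid1b and -0.055 to 0.00047 for Smarca2. The cause of these changes was not tested. Signal over background limits Actl6b and Bcl11b, which were tested only without the filter on dim probes. Some measured subunits were also dim. The mean log2 intensity was 5.96 for Smarcd1, 6.12 for Bcl7b, 6.42 for Dpf3 and 6.45 for Smarcc2, against 5.84 and 5.87 for the Actl6b probes. The part of low signal in the size of their differences was not tested gene by gene.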
